A study of Mus musculus with 9 samples.

Results

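Microglia, the resident macrophages of the brain, are held in their state by a small set of transcription factors, and 9 of these genes were followed here in an amyloid mouse model with and without deletion of connexin 43. The factors were Sall1, Sall3, Maf, Spi1, Irf8, Mef2a, Mef2c, Cebpa and Runx1, chosen by symbol among the 18571 genes of the deposited expression table; all 9 were present and all 9 passed the filter on low counts. Microglia had been taken from cortex and hippocampus of C57BL/6J mice aged 9 months by panning with an antibody against CD45, a surface protein shared by all leukocytes. There were 3 groups of 3 libraries. WT mice carried no transgene named in the labels, APP/PS1 mice carried amyloid transgenes, and the third group was APP/PS1:Cx3cr1-CreER:Cx43-flox/flox, called cKO below and Cx43 cKO in the plots. CreER in that group is a tamoxifen-dependent recombinase driven from the Cx3cr1 locus, which is active in microglia and in other myeloid cells, and it removes Cx43, the gap junction protein encoded by Gja1. The labels give tamoxifen at 8 months of age, 0.1 mg/g by mouth for 5 days, for every sample including the groups without CreER. No group with CreER or the floxed allele but without APP/PS1 was analysed here, and the labels do not say whether a library came from 1 mouse or from several. P-values therefore measure the spread between these libraries, which may be technical.

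Spi1 encodes PU.1, the ETS-family factor that opens myeloid enhancers, and it works with Irf8, with Cebpa and with Runx1, which are used across the myeloid lineage from progenitors onward. Sall1 and Sall3 are zinc finger factors of the spalt family; Sall1 separates microglia from other macrophages, and its expression depends on TGF-beta signals acting through SMAD proteins. Mef2a and Mef2c are MADS-box factors that bind A/T-rich sites and are held in check by class IIa histone deacetylases. Maf is a basic leucine zipper factor of mature tissue macrophages.

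Total estimated counts were 18907681 to 19565354 per library, and the 9 factors together took 0.256% to 0.312% of them, with 1214 to 16515 counts per factor and library. Gja1 was lower in cKO than in APP/PS1 with a log2 change of -0.56 (SE 0.06, edgeR adjusted p 7.95e-09). Gja1 is abundant in astrocytes, and the sum of 9 astrocyte genes, Gja1 included, was 493 to 502 CPM in WT, 698 to 724 in APP/PS1 and 534 to 546 in cKO (8 of 9 higher in APP/PS1, then 8 of 9 lower in cKO); its part in the level of Gja1 was not tested. In cKO against APP/PS1, Cx3cr1, whose locus holds the recombinase, was lower, at -0.88 (SE 0.03, edgeR adjusted p 9.07e-21). Microglial markers were abundant in all groups, with Csf1r at 6622, 4735 and 5540 CPM (counts scaled to library size with TMM factors) and Tmem119 at 1100, 884.7 and 833 CPM in the WT libraries, APP/PS1 and cKO. Markers of other blood cells were present as well and differed between the groups. The sum of 10 neutrophil genes was 2804 to 2846 CPM in WT libraries, 950.3 to 968 in APP/PS1 and 9220 to 9409 in cKO, with 10 of 10 lower in APP/PS1 than in WT and 10 of 10 higher in cKO than in APP/PS1. The sum of 6 monocyte genes was 382 to 395, 90.95 to 104 and 697 to 718 CPM (6 of 6 lower, then 6 of 6 higher), and that of 6 erythroid genes was 1185 to 1240, 248 to 275 and 95.2 to 105 CPM. The Y-linked gene Ddx3y had 4137 to 4258 estimated counts in WT, 4170 to 4538 in APP/PS1 and at most 2.34 in cKO, so sex and genotype cannot be told apart in any comparison with cKO. In bulk libraries fewer cells of a type and less RNA per cell cannot be told apart either. The scale chosen for the libraries also matters: the median log2 change of all tested genes from WT to APP/PS1 was -0.04 with TMM, -0.17 with library totals and -0.35 on TPM, so the sign of a change of that size depends on the scale.

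Per transcript length, Spi1 was the most abundant of the 9 in every group. Its deposited FPKM (reads scaled to transcript length and depth) was 235 ± 6.98 (SD, n = 3) in WT, 187 ± 3.75 in APP/PS1 and 224 ± 3.75 in cKO. In WT it was followed by Mef2a at 153 ± 5.89 FPKM, Cebpa at 133 ± 2.77, Irf8 at 109 ± 4.01 and Sall1 at 84.1 ± 0.875. The lower levels were those of Mef2c at 72.9 ± 1.47 FPKM, Maf at 33.9 ± 0.826, Runx1 at 28.0 ± 1.10 and Sall3 at 12.1 ± 0.0306. No neighbours in this WT order overlapped between their 3 libraries. In APP/PS1 Mef2c (71.8 ± 0.590 FPKM) stood above Sall1 (67.7 ± 1.68), and in cKO Mef2c (76.3 ± 1.66) again stood above Sall1 (72.4 ± 2.45). In cKO Cebpa (136 ± 3.22 FPKM) also stood above Mef2a (122 ± 2.71). In APP/PS1 Cebpa at 104 ± 2.33 FPKM and Irf8 at 98.9 ± 1.08 lay close together without overlapping. The order of the 9 was the same on TPM in each group. Even Sall3, the lowest, lay above 68.0% of the 18571 genes of the deposited table in cKO.

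**Figure D1:**
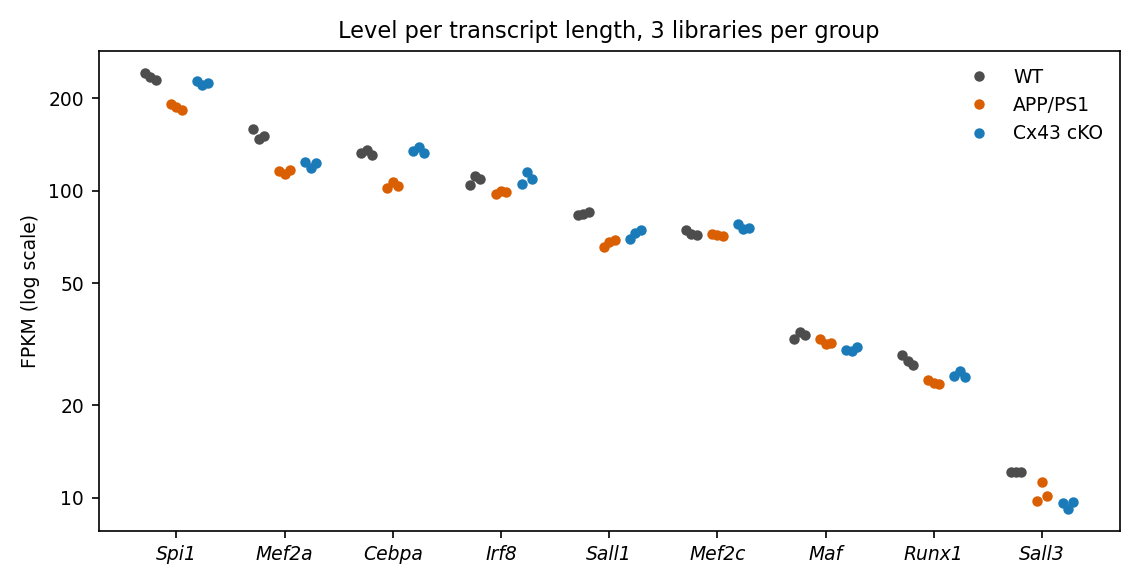
Deposited FPKM (log axis) of the 9 factors in each of the 3 WT, 3 APP/PS1 and 3 cKO libraries, 1 point per library, ordered by the WT mean. Spi1 is highest at 187 to 235 FPKM on average and Sall3 lowest at 9.50 to 12.1, and Mef2c lies above Sall1 in APP/PS1 and cKO but not in WT.

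The first comparison, APP/PS1 against WT, asks how the factors differ in the amyloid model. Mef2a, Cebpa, Spi1, Sall1 and Runx1 were lower in APP/PS1 and Mef2c was higher, while Maf, Irf8 and Sall3 did not pass the test; the calls of Mef2c, Cebpa, Spi1 and Runx1 depended on the scale or the offsets used, as given with each gene. These 6 calls of 9 (66.7%) compare with 59.0% of the 14696 tested genes, of which 26.9% were higher and 32.0% lower. The libraries of the 2 groups did not overlap for 7 of the 9 factors, against 63.5% of tested genes. The median absolute log2 change of the factors was 0.12, against 0.25 over all tested genes. Their median log2 change was -0.09 against -0.04.

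The second comparison, cKO against APP/PS1, asks what differs when Cx43 is deleted in the amyloid model, and it uses the same APP/PS1 libraries as the first. Cebpa, Spi1 and Irf8 were higher in cKO, and Sall3 and Maf were lower, although on TPM the signs of Sall3 (0.04) and Maf (0.08) turned. Sall1, Mef2a, Mef2c and Runx1 did not pass. These 5 calls (55.6%) stand beside 55.0% of all tested genes, 27.3% higher and 27.7% lower, and 6 factors did not overlap between the groups, against 59.7% of tested genes. The median absolute log2 change was 0.11 for the factors and 0.23 for all tested genes.

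**Figure D2:**
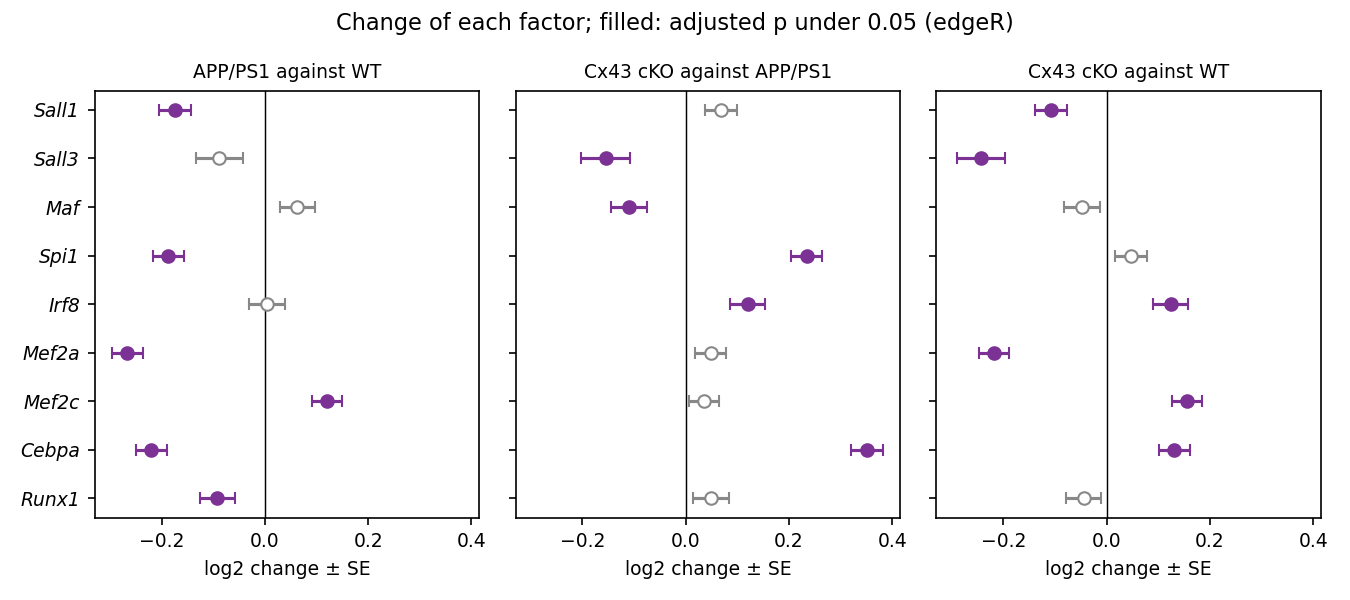
Log2 change of each factor with its standard error (horizontal axis) in APP/PS1 against WT, cKO against APP/PS1 and cKO against WT, from the edgeR fit over 9 libraries; filled points passed an adjusted p of 0.05. Mef2a has the lowest value of the left panel (-0.27) and Cebpa the highest of the middle panel (0.35).

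Among the lineage factors, Cebpa, a basic leucine zipper factor of granulocyte and macrophage development, had the widest swing. It was at 325, 334 and 320.05 CPM in WT libraries 1 to 3, at 274, 287 and 279 in APP/PS1, and at 354, 367 and 350.3 in cKO. Every APP/PS1 library lay below every WT library, and every cKO library lay above both other groups. Against WT, Cebpa was lower in APP/PS1 (a change of -14.2%, a log2 change of -0.22, SE 0.03, edgeR adjusted p 6.45e-07), a call that was lost when GC content and transcript length were adjusted for (log2 change -0.02, edgeR adjusted p 0.524). Its annotated transcript is 62.6% G and C, the highest of the 9. Against APP/PS1, Cebpa was higher in cKO by 27.6% (log2 change 0.35, SE 0.03, edgeR adjusted p 1.83e-10), and this held in each of 13 other settings, at log2 changes of 0.24 to 0.54. The neutrophil and monocyte sums given above were also lowest in APP/PS1 and highest in cKO, while the sum of 6 genes of immature neutrophils was highest in WT, at 523 to 551 CPM, against 9.18 to 10.98 in APP/PS1 and 345 to 358 in cKO (6 of 6 lower in APP/PS1, then 6 of 6 higher). The part of these cells in the level of Cebpa was not tested.

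The other CEBP genes are bZIP factors that share the CEBP site. Of 4 tested, 3 were lower and 1 higher in APP/PS1 against WT, and 2 were higher and none lower in cKO against APP/PS1. Their median log2 changes were -0.30 and 0.18, beside -0.04 and -0.01 for all tested genes. The counts of this and the later lists stand beside 26.9% higher and 32.0% lower of all tested genes in the first comparison. In the second the shares were 27.3% higher and 27.7% lower. Cebpb, which drives inflammatory gene expression, was at 161 CPM in the WT libraries, 127 in APP/PS1 and 158 in cKO, a log2 change of -0.34 in the first comparison (edgeR adjusted p 0.00086) and 0.32 in the second (edgeR adjusted p 0.00167), both lost when GC content and length were adjusted for (edgeR adjusted p 0.0579 and 0.0524). Cebpe, the factor of late granulocyte maturation, was at 3.69, 0.541 and 9.23 CPM, a log2 change of -2.75 (edgeR adjusted p 4.12e-12) and then 4.08 (edgeR adjusted p 3.85e-17). Cebpg, a widely expressed dimer partner, was the gene higher in APP/PS1 (0.23, edgeR adjusted p 4.71e-06), except on TPM, where it was -0.164. Cebpd was lower in APP/PS1, at a log2 change of -0.26 (edgeR adjusted p 0.000122) and had 0.05 in cKO against APP/PS1 (edgeR adjusted p 0.491); with the GC and length offsets these were -0.14 (edgeR adjusted p 0.0244) and -0.05 (edgeR adjusted p 0.425).

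Spi1 was at 324, 313 and 303 CPM in the WT libraries, 279.7, 275 and 270.3 in APP/PS1, and 328, 319 and 324 in cKO. The APP/PS1 libraries were below all others, and WT and cKO overlapped. Spi1 was lower in APP/PS1 than in WT (a change of -12.2%, a log2 change of -0.19, SE 0.03, edgeR adjusted p 8.05e-06); with offsets for GC content and length the value was -0.13 and missed the threshold (edgeR adjusted p 0.0883), and with a replicate block added it passed (edgeR adjusted p 2.11e-07). It was higher in cKO than in APP/PS1 by 17.6% (log2 change 0.23, SE 0.03, edgeR adjusted p 3e-07), with 0.22 to 0.42 over the 13 other settings, all past the threshold. Neutrophils and monocytes also use PU.1, and the sums of their markers above were likewise lowest in APP/PS1. Those sums were higher in cKO than in WT, whereas Spi1 overlapped between these 2 groups. The part of these cells in the level of Spi1 was not tested.

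Of 14 other ETS genes, 3 were higher and 9 lower in APP/PS1 against WT, and 10 were higher and 1 lower in cKO against APP/PS1. Their median log2 changes were -0.15 and 0.16, and both kept their sign under each scale tried. In the first comparison 1 was higher and 10 lower with library totals (median -0.288), and 13 were lower on TPM (median -0.544). With offsets for GC content and length the medians were -0.086 and 0.115. The nearest relatives of Spi1 were minor by level: Spib, a B cell and dendritic cell factor, had 3.80, 0.939 and 2.62 CPM in the 3 groups, and Spic, a factor of iron-recycling macrophages, had 4.29, 2.80 and 2.27 CPM. Spi1 made up 97.8% to 98.8% of the summed mean FPKM of these 3 genes. Spib was lower in APP/PS1, at a log2 change of -2.01 (edgeR adjusted p 2.4e-09) and higher in cKO than in APP/PS1 by 1.48 (edgeR adjusted p 1.79e-06) on the log2 scale. The sum of 6 B cell genes was 44.6 to 47.8 CPM in WT, 19.8 to 21.8 in APP/PS1 and 28.7 to 30.2 in cKO (5 of 6 lower, then 4 of 6 higher), and its part in the levels of Spib and of the IRF gene Irf4 was not tested. Spic was lower in APP/PS1 than in WT, at a log2 change of -0.62 (edgeR adjusted p 0.000569) and had -0.30 in the second comparison (edgeR adjusted p 0.129). The sum of 7 border macrophage genes was 539 to 551 CPM in WT, 407 to 421 in APP/PS1 and 349 to 366 in cKO (2 higher and 4 lower, then 1 higher and 6 lower), and its part in the level of Spic was not tested. Ets2 was higher in cKO than in APP/PS1 by 0.49 (edgeR adjusted p 4.67e-13) and Etv1 was lower, at -0.58 (edgeR adjusted p 7.98e-11). Elk3 was above WT in APP/PS1 by 0.38 (edgeR adjusted p 8.7e-10), except on TPM, where it was -0.01.

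Irf8, the interferon regulatory factor that pairs with PU.1 on composite sites, was at 275, 297 and 289.5 CPM in the WT libraries and 284, 291 and 288 in APP/PS1. These groups overlapped, with a log2 change of 0.00 (SE 0.03, edgeR adjusted p 0.93) that moved to -0.13 with library totals (edgeR adjusted p 0.00113) and 0.11 with offsets for GC content and length (edgeR adjusted p 0.00176). In cKO it was at 299, 328 and 311 CPM, above every library of the other groups. Against APP/PS1 this was 8.64% higher (log2 change 0.12, SE 0.03, edgeR adjusted p 0.00431). Without cKO library 2 the value was 0.08 (edgeR adjusted p 0.057), and with offsets for GC content and length it was 0.04 (edgeR adjusted p 0.292). The monocyte and neutrophil sums, at 697 to 718 and 9220 to 9409 CPM, were also highest in cKO, and their part in the level of Irf8 was not tested.

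Of 9 other IRF genes, 1 was higher and 6 were lower in APP/PS1 against WT, and 6 were higher and 2 lower in cKO against APP/PS1 (median log2 changes -0.26 and 0.23). With offsets for GC content and length the medians were -0.13 and 0.14, and on TPM 9 of 9 were lower in the first comparison (median -0.65). Irf1, an interferon-induced activator, was the most abundant IRF gene per length in each group, at 222 FPKM in WT, 146 in APP/PS1 and 141 in cKO, and it was lower in APP/PS1 than in WT, at a log2 change of -0.47 (edgeR adjusted p 2.61e-13). Irf7, the factor that amplifies type I interferon, was at 35.9 CPM in the WT libraries, 27.4 in APP/PS1 and 41.9 in cKO, a log2 change of -0.39 (edgeR adjusted p 2.57e-06) and then 0.62 (edgeR adjusted p 1.05e-09); the former was -0.25 with the GC and length offsets. Irf4, a lymphoid and dendritic cell factor, had -0.90 (edgeR adjusted p 6.51e-12) and then 0.62 (edgeR adjusted p 2.25e-08). Irf9, part of the interferon response complex, had 0.16 in APP/PS1 against WT (edgeR adjusted p 0.0246), a call that was lost with library totals and on FPKM, turned to -0.227 on TPM and passed in 5 of 9 fits that left out 1 library.

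Runx1, which with its partner CBFB starts the blood lineages and marks embryonic microglia, was at 189.8, 181 and 176 CPM in the WT libraries, 173, 170.1 and 169 in APP/PS1 and 174, 182 and 175 in cKO. The APP/PS1 libraries were below both other groups, by a margin smaller than the spread within WT. Runx1 was lower in APP/PS1 than in WT (a change of -6.19%, a log2 change of -0.09, SE 0.03, edgeR adjusted p 0.0215). This call was lost without WT library 1 (edgeR adjusted p 0.151), without APP/PS1 library 2 (0.0553) or library 3 (0.0717), with the DESeq2 test (DESeq2 adjusted p 0.134) and with offsets for GC content and length (edgeR adjusted p 0.28). Against APP/PS1 the cKO libraries gave 0.05 (SE 0.03, edgeR adjusted p 0.236). Of 5 partners and relatives, 1 was higher and 3 lower in APP/PS1 against WT, and 2 were higher and none lower in cKO against APP/PS1 (medians -0.28 and 0.11). Adjusting for GC content and length gave 2 higher and 2 lower in the first comparison, with a median of -0.074. Runx2 was at 7.37, 3.37 and 10.1 CPM in the WT libraries, APP/PS1 and cKO, with log2 changes of -1.13 (edgeR adjusted p 2.33e-07) and 1.58 (edgeR adjusted p 3.61e-10). Cbfb, the shared partner, was the gene higher in APP/PS1 (0.24, edgeR adjusted p 9.45e-07), except on TPM, where it was -0.148, and was 0.12 with the GC and length offsets. Runx3, better known from lymphocytes, had -0.28 (edgeR adjusted p 0.000797) and 0.37 (edgeR adjusted p 4.09e-05); once GC content and length were adjusted for, these were -0.074 (edgeR adjusted p 0.369) and 0.22 (edgeR adjusted p 0.00746).

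**Figure D3:**
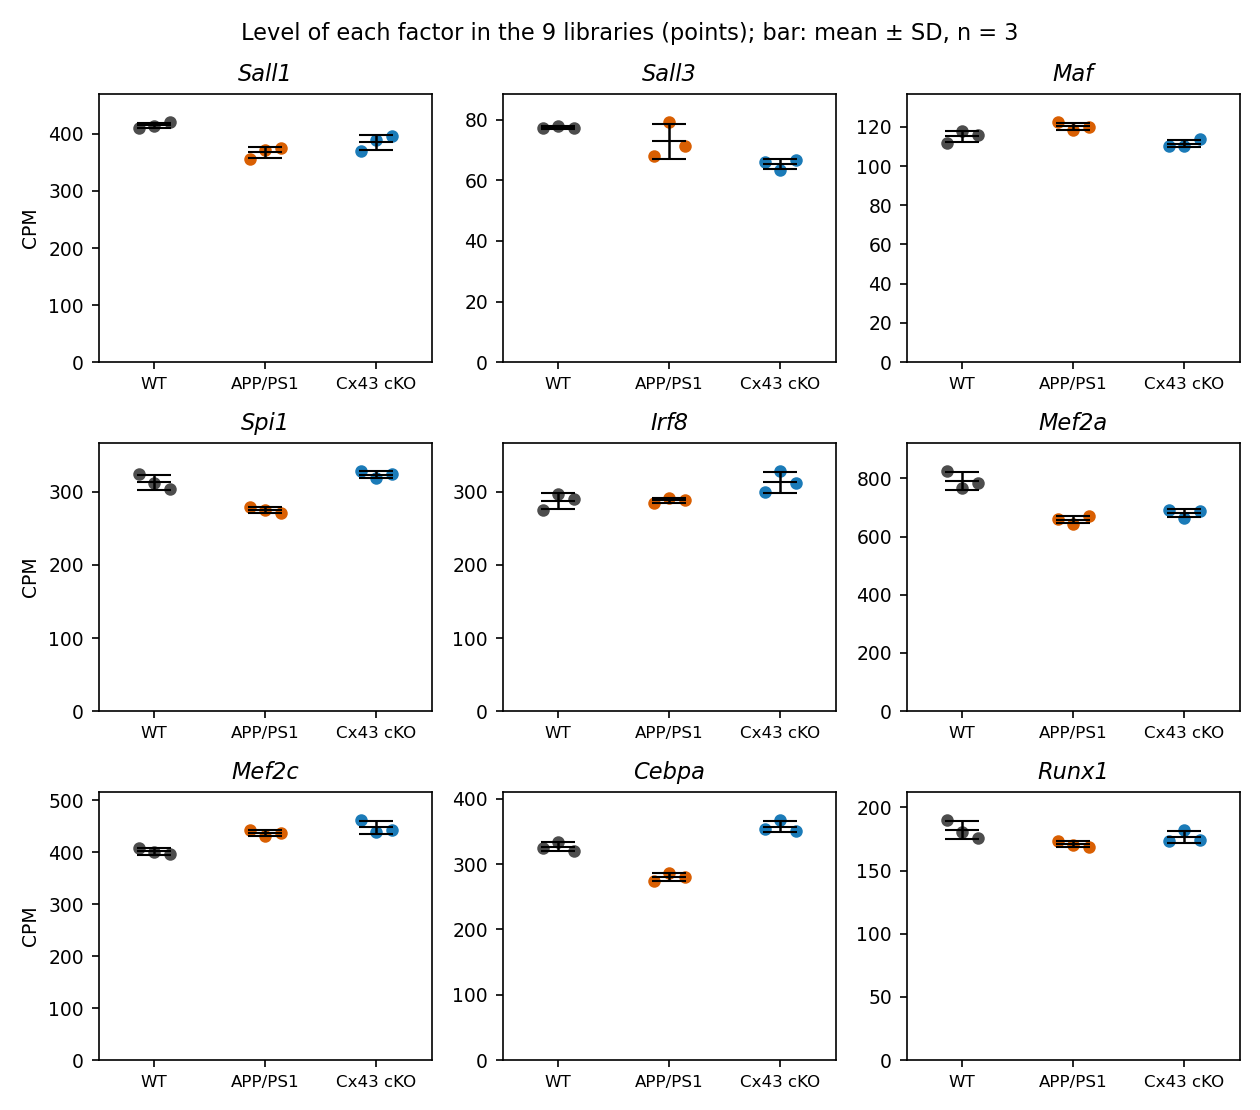
CPM (TMM-scaled) of each of the 9 factors in WT, APP/PS1 and cKO, with 1 point per library and the mean ± SD of 3 libraries as a black bar; each vertical axis starts at 0. Spi1 and Cebpa are lowest in APP/PS1, Mef2a and Sall1 are highest in WT, and APP/PS1 library 2 of Sall3 (79.2 CPM) stands above the other 2 libraries of its group.

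Sall1, the first of the factors tied to microglial identity, was at 410.1, 414 and 420.3 CPM in the WT libraries, 356, 371 and 375 in APP/PS1 and 370.1, 389 and 397 in cKO. The 3 WT libraries were above all 6 others, and APP/PS1 and cKO overlapped. Sall1 was lower in APP/PS1 than in WT (a change of -11.4%, a log2 change of -0.17, SE 0.03, edgeR adjusted p 2.29e-05), and it was lower and past the threshold in each of 13 other settings, at -0.57 to -0.07, and without each library in turn. Against APP/PS1, the cKO value was 0.07 (SE 0.03, edgeR adjusted p 0.0652). It passed as higher in 6 of 13 other settings, which were a replicate block (edgeR adjusted p 0.00141), DESeq2 size factors, library totals, FPKM with either pseudocount and TPM (0.26, limma adjusted p 3.54e-05). It also passed without cKO library 1 (0.10, edgeR adjusted p 0.0129), and with offsets for GC content and length it was -0.01 (edgeR adjusted p 0.754).

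Sall3 was at 77.2, 77.9 and 77.3 CPM in the WT libraries, 68.1, 79.2 and 71.3 in APP/PS1 and 66.1, 63.5 and 66.8 in cKO. APP/PS1 library 2 was the highest of all 9, so APP/PS1 overlapped WT, while every cKO library lay below all others. APP/PS1 against WT gave -0.09 (SE 0.05, edgeR adjusted p 0.101), -0.15 without APP/PS1 library 2 (edgeR adjusted p 0.00552), -0.09 under a replicate block (edgeR adjusted p 0.0407), and 0.10 with offsets for GC content and length (edgeR adjusted p 0.0503), which passed as higher once those offsets were joined with the block (edgeR adjusted p 0.0276). It also passed as lower with library totals (-0.23), on FPKM (-0.21) and on TPM (-0.46), so the direction of its calls depended on the setting. Sall3 was lower in cKO than in APP/PS1 (a change of -10.2%, a log2 change of -0.16, SE 0.05, edgeR adjusted p 0.00669), a call that was lost without APP/PS1 library 2 (-0.10, edgeR adjusted p 0.0864) and on FPKM (-0.12, limma adjusted p 0.0767). The sum of 8 neuron genes was 79.0 to 86.0 CPM in WT, 92.5 to 99.45 in APP/PS1 and 65.8 to 70.3 in cKO (4 higher and 1 lower, then 6 lower). That of 6 vessel genes was 416 to 424, 401 to 414 and 345 to 352 CPM (3 lower, then 5 lower). Their part, and that of the border macrophages above, in the levels of Sall3 and Maf was not tested. Sall1 took 84.05% to 86.1% of the summed mean FPKM of the 4 SALL genes in the 3 groups. Sall2 was at 12.2, 11.9 and 10.5 CPM and passed in neither of these comparisons, and Sall4 had under 0.1 CPM.

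Sall1 depends on TGF-beta, so 9 genes of that pathway were read beside it. Of these, 2 were higher and 2 lower in APP/PS1 against WT, and 5 were higher and none lower in cKO against APP/PS1. Their median log2 change was -0.02 in the first comparison and 0.075 in the second, and the former turned to 0.031 when GC content and length were adjusted for. The balance in APP/PS1 depended on the scale, with 1 higher and 7 lower with library totals or on FPKM and 9 lower on TPM (median -0.404). In cKO against APP/PS1, 9 were higher on TPM (median 0.269). Offsets for GC content and length gave 3 higher and 1 lower there (median 0.073). Tgfbr2, the receptor subunit that binds the ligand, was at 441 CPM in the WT libraries, 538 in APP/PS1 and 567 in cKO, higher in APP/PS1 by 0.29 on the log2 scale (edgeR adjusted p 8.98e-10) except on TPM, where it was -0.10. Smad3, a signal transducer, and Smad7, an inhibitor that the pathway itself induces, each had a log2 change of -0.15 in APP/PS1 (edgeR adjusted p 0.000733 and 0.000293), and offsets for GC content and length gave 0.00 and 0.07. In cKO against APP/PS1, Smad3 was higher by 0.19 (edgeR adjusted p 6.58e-05), Smad7 by 0.21 (edgeR adjusted p 4.71e-06) and the ligand gene Tgfb1 by 0.14 (edgeR adjusted p 0.00316). With offsets for GC content and length Smad3 (0.07, edgeR adjusted p 0.0521) and Smad7 (0.055, edgeR adjusted p 0.12) missed the threshold there, and Tgfb1 had 0.077 (edgeR adjusted p 0.0307).

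With TMM, Mef2a was lower and Mef2c higher in APP/PS1 than in WT. Mef2a was at 825, 766 and 784 CPM in the WT libraries, 659, 645 and 670.3 in APP/PS1 and 689.8, 664 and 687 in cKO. The WT libraries stood above all others, and APP/PS1 and cKO overlapped. Mef2a was lower in APP/PS1 than in WT (a change of -16.9%, a log2 change of -0.27, SE 0.03, edgeR adjusted p 1.74e-08), and in each of 13 other settings it was lower and past the threshold, at -0.66 to -0.23. The summed level of 12 early response genes, which rise with cell handling, was also highest in WT (24950 to 26410 CPM, against 20210 to 21370 in APP/PS1 and 21110 to 22260 in cKO, 12 of 12 lower in APP/PS1), as was the erythroid sum given above, and their part in the levels of Mef2a and Sall1 was not tested. In cKO against APP/PS1 Mef2a had 0.05 (SE 0.03, edgeR adjusted p 0.176), which passed under a replicate block (edgeR adjusted p 0.0191) and with offsets for GC content and length (0.12, edgeR adjusted p 7.84e-05).

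Mef2c was at 409, 399 and 396 CPM in the WT libraries, 442, 431 and 437 in APP/PS1 and 461, 438 and 443 in cKO, with WT below all others. It was above WT in APP/PS1 by 8.70% (log2 change 0.12, SE 0.03, edgeR adjusted p 0.000779) with TMM, but its sign turned with library totals (-0.02), on FPKM (-0.02) and on TPM (-0.27), and the call was lost with offsets for GC content and length (0.01, edgeR adjusted p 0.647). In cKO against APP/PS1 it had 0.04 (SE 0.03, edgeR adjusted p 0.299), and 0.18 with offsets for GC content and length (edgeR adjusted p 2.89e-07).

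Of the summed FPKM of the MEF2 genes, Mef2a took 55.0% ± 1.13 (SD, n = 3) in WT, 50.8% ± 0.791 in APP/PS1 and 49.98% ± 0.580 in cKO. Mef2c took 26.3% ± 0.145, 31.6% ± 0.411 and 31.3% ± 0.497, and Mef2d 18.7% ± 1.11, 17.6% ± 0.834 and 18.6% ± 0.860. The ratio of the estimated counts of Mef2a and Mef2c in the same library does not depend on library scaling, and was examined after the values had been seen. Mef2a per Mef2c was 2.018, 1.918 and 1.977 in the WT libraries, 1.493, 1.495 and 1.536 in APP/PS1 and 1.496, 1.516 and 1.552 in cKO. WT did not overlap with either other group (exact permutation p 0.1, two-sided, the smallest possible with 3 libraries against 3), and APP/PS1 and cKO overlapped (exact permutation p 0.5). The same ratio for Sall1 per Mef2c was 1.03 ± 0.0284 (SD, n = 3) in WT, 0.842 ± 0.0304 in APP/PS1 and 0.862 ± 0.0513 in cKO. Cebpa per Mef2c was 0.813 ± 0.0202, 0.642 ± 0.0228 and 0.799 ± 0.0354, and Spi1 per Mef2c was 0.780 ± 0.0139, 0.630 ± 0.00999 and 0.723 ± 0.0105. Of these, Cebpa and Spi1 did not overlap between APP/PS1 and cKO, and Sall1 did. The ratios are not free of GC content and length: adjusted for both, the log2 changes in cKO against APP/PS1 were 0.24 for Cebpa, 0.22 for Spi1 and 0.178 for Mef2c, and in APP/PS1 against WT they were -0.02 for Cebpa and 0.014 for Mef2c.

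The class IIa deacetylases bind MEF2 proteins and repress their targets. With Mef2d, 5 genes of this list were tested; 1 was higher and 4 lower in APP/PS1 against WT, and 4 were higher and none lower in cKO against APP/PS1 (medians -0.33 and 0.17). Adjusting for GC content and length left 1 higher and 2 lower in the first comparison and 2 higher in the second, with medians of -0.056 and 0.031. Hdac4 was at 24.9 CPM in the WT libraries, 19.4 in APP/PS1 and 28.7 in cKO, a log2 change of -0.36 (edgeR adjusted p 1.23e-05) and then 0.57 (edgeR adjusted p 8.41e-09). Hdac7 had -0.56 (edgeR adjusted p 1.45e-07) and then 0.48 (edgeR adjusted p 2.41e-06), and Hdac5 was higher in cKO than in APP/PS1 by 0.17 (edgeR adjusted p 0.000184) but at 0.021 once GC content and length were adjusted for (edgeR adjusted p 0.599). The same adjustment gave Hdac4 -0.21 and Hdac7 -0.29 in the first comparison, both still past the threshold. Hdac9 was the exception, at 22.2, 33.7 and 33.6 CPM, higher in APP/PS1 by 0.60 (edgeR adjusted p 1.33e-08) and at -0.00 in the second comparison (edgeR adjusted p 0.988). Mef2b was not tested for low counts.

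Maf was at 112, 118 and 116 CPM in the WT libraries, 122, 118.5 and 119.9 in APP/PS1 and 110.35, 110.25 and 114 in cKO. Its APP/PS1 libraries lay above the others, by less than 1 CPM over WT library 2. APP/PS1 against WT gave 0.06 (SE 0.03, edgeR adjusted p 0.123), which passed as higher in 5 of 13 other settings, among them a replicate block (edgeR adjusted p 0.0359), DESeq2 size factors (0.08, edgeR adjusted p 0.0426) and offsets for GC content and length (0.11, edgeR adjusted p 0.00335). It turned sign with library totals (-0.08), on FPKM (-0.07) and on TPM (-0.33), and passed as lower on TPM (limma adjusted p 3.14e-06). cKO was lower than APP/PS1 (a change of -7.32%, a log2 change of -0.11, SE 0.03, edgeR adjusted p 0.0094), which missed the threshold on FPKM (limma adjusted p 0.0632) and with library totals (edgeR adjusted p 0.0531). Of 5 tested SALL and MAF relatives, none was higher and 2 were lower in APP/PS1 against WT, and 3 were higher and 1 lower in cKO against APP/PS1 (medians -0.06 and 0.10). With library totals 4 were lower in the first comparison, and adjusting for GC content and length gave 2 higher and 2 lower in the second. Those that differed from WT in APP/PS1 were small MAF proteins, which lack an activation domain: Mafg had -0.41 (edgeR adjusted p 3e-10) and Mafk -0.35 (edgeR adjusted p 7.71e-10), and in cKO against APP/PS1 they had 0.22 (edgeR adjusted p 1.69e-05) and 0.20 (edgeR adjusted p 1.96e-05). Adjusted for GC content and length, the values were -0.22 and then 0.076 for Mafg and -0.165 and then 0.057 for Mafk, whose second call was lost (edgeR adjusted p 0.148). The small MAF gene Maff was higher in cKO than in APP/PS1 by 0.10 (edgeR adjusted p 0.00907), and passed in 8 of 9 fits that left out 1 library.

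The genomic positions of the factors that bear on their counting and their start sites are given on GRCm38.p6, the build named in the submitters' processing notes, from the RefSeq gene table; all are protein-coding genes. Spi1 lies at chr2:91082374-91115759, Mef2a at chr7:67231163-67376456, Cebpa at chr7:35119293-35121928, Sall1 at chr8:89027242-89044162, Maf at chr8:115703253-115706894, Irf8 at chr8:120736358-120756694, Mef2c at chr13:83504017-83667079 and Runx1 at chr16:92601466-92826074. It is not stated whether reads were counted by strand, and genes annotated on the opposite strand in GENCODE release M21 overlap Mef2a (Lysmd4), Maf (Gm15655), Cebpa (Gm45091) and Runx1 (Gm26626). Lysmd4 has a row of its own in the table, so that reads from bases it may share with Mef2a are uncertain; the other partners have no row, and without strand their reads cannot be told apart from those of the factor. On the same strand GENCODE places Gm20388, annotated as protein coding, over Irf8 and the unclassified Gm44667 and Gm44668 within Mef2a, none of them in the table, so their reads cannot be told apart either. In RefSeq, noncoding genes also overlap Sall1 (Gm3134), Mef2c (Gm52043 and Gm52044) and Runx1 (Gm30281).

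Start-site sequences were searched for 6 of the factors (Sall1, Irf8, Mef2a, Mef2c, Cebpa and Runx1). They came as 12 RefSeq windows on GRCm38.p6 of 250 bases before to 50 after a start. Sall3, Maf and Spi1 were not among those searched, and for Sall3 any window was left out beforehand. Both strands were searched for letters of sites linked to the ETS, RUNX, CEBP, IRF, MAF and MEF2 families and, for the TGF-beta pathway, to SMAD proteins. Stretches are printed for Mef2a, Sall1, Mef2c and Cebpa, to show a MEF2 factor and Sall1 with a match and Cebpa, called in each comparison with TMM, without one; capitals mark a MEF2 motif in Mef2a, the ETS core GGAAGT in Sall1 and its reverse complement ACTTCC in Mef2c, and Cebpa, whose window held no match, has none. They lie at chr7:67372851-67372970 on the minus strand (Mef2a), chr8:89042993-89043112 on the minus strand (Sall1), chr13:83503914-83504016 on the plus strand (Mef2c) and chr7:35119173-35119292 on the plus strand (Cebpa), each 5′ to 3′ on the strand of its gene. The Mef2a and Sall1 stretches lie inside the gene spans given above, and the others lie before the start.
Mef2a: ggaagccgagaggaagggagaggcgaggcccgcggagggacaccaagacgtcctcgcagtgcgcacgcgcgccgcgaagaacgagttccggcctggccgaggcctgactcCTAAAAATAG
Sall1: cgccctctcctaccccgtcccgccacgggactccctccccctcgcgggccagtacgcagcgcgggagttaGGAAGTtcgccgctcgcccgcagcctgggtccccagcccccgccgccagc
Mef2c: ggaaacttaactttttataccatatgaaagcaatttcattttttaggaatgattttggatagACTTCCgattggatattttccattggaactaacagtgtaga
Cebpa: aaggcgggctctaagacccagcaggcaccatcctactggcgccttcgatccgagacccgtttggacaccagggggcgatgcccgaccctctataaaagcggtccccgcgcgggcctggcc
The MEF2 motif of Mef2a spans the RefSeq start of that window, which lies inside the Mef2a span, and 3.19% of the 32851 windows in the table hold such a motif. The ETS core GGAAGT was found in 2 of the 12 windows, those shown for Sall1 and Mef2c, against 23.8% of all windows; the Sall1 window likewise belongs to a start inside the gene. The longer PU.1 motif GAGGAAGT, which contains the ETS core (3.20% of all windows), the CEBP motif TTGCNNAA (10.8%) and the IRF motif, which repeats the letters GAAA with 2 bases between (3.44%), were found in none of the 12. The RUNX motif TGTGGT was in 1 window, that of Runx1 (16.8% of all), the MAF site letters TGCTGA in 2, of Irf8 and Mef2c (19.5%), and the SMAD letters CAGAC in 5, of Sall1, Irf8 and Mef2c (49.6%). These are matches of letters in short windows, and no binding was measured.

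Other transcription factors linked to microglial states were read from a list of 27. Of these, 5 were higher and 15 lower in APP/PS1 against WT, and 13 were higher and 5 lower in cKO against APP/PS1 (medians -0.24 and 0.13). With library totals 2 were higher and 19 lower in the first comparison. In the second, 20 were higher and none lower on TPM (median 0.285). Offsets for GC content and length gave 13 higher and 3 lower there (median 0.081). Hif1a, the hypoxia and glycolysis factor, had 227 CPM in the WT libraries, 460 in APP/PS1 and 467 in cKO, a log2 change of 1.02 (edgeR adjusted p 1.98e-19) and then 0.02 (edgeR adjusted p 0.582). Klf2, a Kruppel-like factor that restrains inflammation, was lower in APP/PS1, at a log2 change of -0.78 (edgeR adjusted p 2.34e-17), and Tfec, of the MITF family, at -1.32 (edgeR adjusted p 4.01e-07). Bhlhe41 was higher in cKO than in APP/PS1 by 0.72 (edgeR adjusted p 6.93e-16), Tfec by 1.08 (edgeR adjusted p 1.45e-05) and Klf4 by 0.54 (edgeR adjusted p 1.59e-14). For the genes named here the sign was the same in all settings in which they were tested.

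The homeostatic genes, which mark resting microglia, went both ways. Of 14, some of which also serve above as microglial markers, 9 were higher and 3 lower in APP/PS1 against WT, with a median log2 change of 0.37 against -0.04 for all tested genes. With library totals 8 were higher and 5 lower (median 0.235), and on TPM 7 and 6 (median 0.057). Fcrls was at 195 CPM in the WT libraries, 1583 in APP/PS1 and 1246 in cKO, a log2 change of 3.02 (edgeR adjusted p 2.08e-31) and then -0.35 (edgeR adjusted p 7.23e-12). Gpr34, a lysophospholipid receptor, was higher in APP/PS1 by 1.24 (edgeR adjusted p 1.59e-14) and the protease inhibitor gene Cst3 by 1.15 (edgeR adjusted p 2.73e-17). Tmem119 had -0.32 (edgeR adjusted p 2.54e-07) and the receptor gene Csf1r -0.48 (edgeR adjusted p 4.26e-16). In cKO against APP/PS1, 4 were higher and 7 lower (median -0.10, and 0.055 on TPM), with Cst3 at -0.73 (edgeR adjusted p 6.87e-14), Gpr34 at -0.50 (edgeR adjusted p 5.96e-09) and Cx3cr1, the locus of the recombinase, at -0.88. With offsets for GC content and length, Tmem119 had -0.16 and Csf1r -0.30 in the first comparison, and Cst3 had -0.46 and Gpr34 -0.28 in the second, each still past the threshold.

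The genes whose profile over the 9 libraries was nearest to that of each factor were taken from 9154 genes with at least 10 CPM, by the distance between centred log2 CPM values. Nearest to Sall1 were Zfp655 (distance 0.05), Kremen1 (0.07) and Poldip2 (0.07), and nearest to Mef2a were Srsf2 (0.07), Mdm4 (0.08) and Zbtb2 (0.09). Nearest to Spi1 were Dusp16 (0.06), Actb (0.07) and Rrbp1 (0.07), and nearest to Cebpa were Ern1, Man1b1 and Sema4g (0.05 to 0.06). Nearest to Sall3 were Akap12 (0.10), Ppm1l (0.12) and H2-Q6 (0.13), and nearest to Irf8 were Aph1a, Tmem115 and Ppm1g (0.08 each). Nearest to Mef2c were Ube2d2a (0.06), Sel1l and Crk (0.07 each), and nearest to Runx1 were Rassf8 (0.06), Dyrk2 and Hs2st1 (0.07 each). Near to Maf were Lrba (0.07) and Nek6 (0.08). Among the factors themselves the closest pairs were Sall1 with Runx1 (0.18) and Spi1 with Cebpa (0.19), and the farthest was Sall3 with Cebpa (0.66).

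The third comparison, cKO against WT, shares its libraries with the first and second. Irf8, Mef2c and Cebpa were higher and Sall1, Sall3 and Mef2a lower in cKO, although on TPM the higher values turned to -0.07, -0.02 and -0.07 and the calls of all 3 were lost with library totals. These 6 calls (66.7%) compare with 47.7% of tested genes, 24.7% higher and 23.0% lower, and 6 factors did not overlap, against 54.6% of tested genes. The lower values held in each of 13 other settings: Sall3 changed by -15.5% (log2 change -0.24, SE 0.05, edgeR adjusted p 8.61e-05), Mef2a by -14% (-0.22, SE 0.03, edgeR adjusted p 7.92e-07) and Sall1 by -7.12% (-0.11, SE 0.03, edgeR adjusted p 0.0054). With TMM, Mef2c was 11.4% above WT (0.16, SE 0.03, edgeR adjusted p 5.59e-05), Cebpa 9.49% (0.13, SE 0.03, edgeR adjusted p 0.000746) and Irf8 8.94% (0.12, SE 0.03, edgeR adjusted p 0.00384). Spi1 (0.05, SE 0.03, edgeR adjusted p 0.207), Maf (-0.05, SE 0.03, edgeR adjusted p 0.278) and Runx1 (-0.04, SE 0.03, edgeR adjusted p 0.303) did not pass, and Spi1 passed under a replicate block (edgeR adjusted p 0.03).

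**Figure D4:**
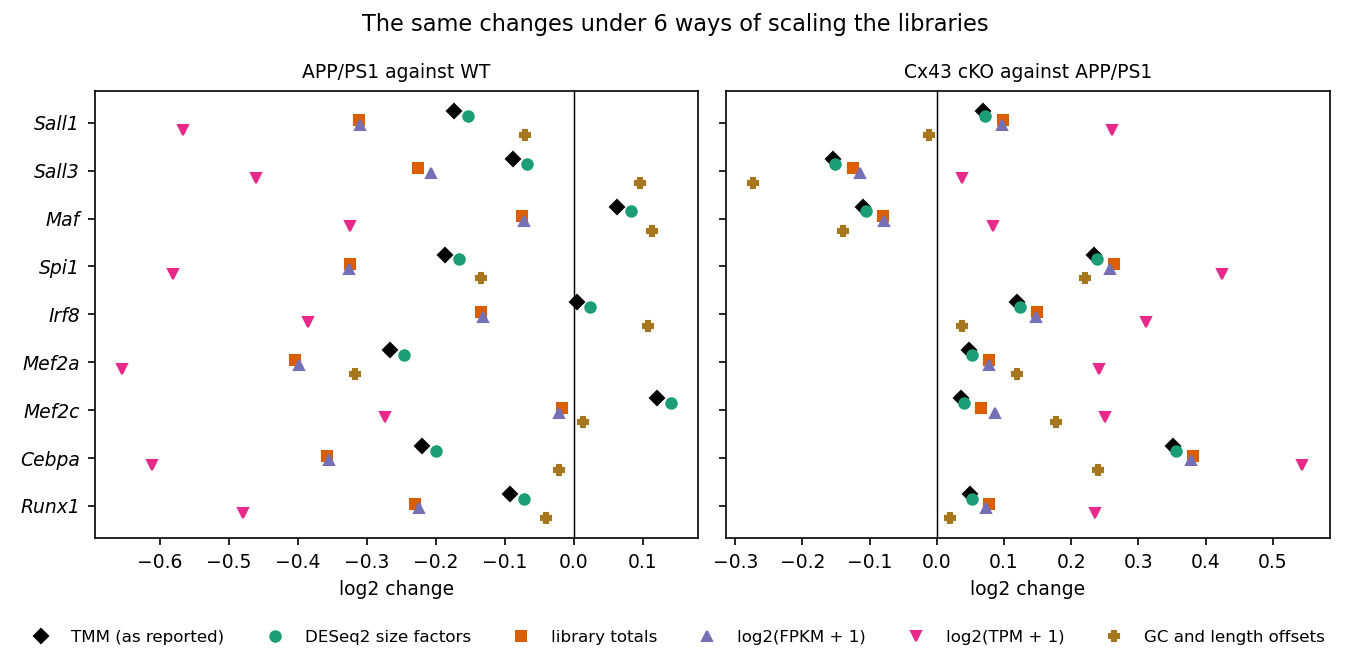
Log2 change of each factor in APP/PS1 against WT (left) and cKO against APP/PS1 (right) with TMM and 5 other ways to scale the same libraries, 1 symbol per scale. Mef2a and Sall1 are left of 0 under every scale in the left panel, and Spi1 and Cebpa are right of 0 under every scale in the right panel. Mef2c, Maf, Irf8 and Sall3 change side in the left panel, and Sall1, Sall3 and Maf in the right panel.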

How the data were processed

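Per the labels' protocols, poly-A RNA of CD45-panned cells was sequenced with single-end 50-nt reads. The submitters' processing notes name HISAT, Bowtie2, DESeq2 and the build GRCm38.p6; their settings are not given in the sources used here. Per the file headers, the deposited table holds estimated counts with decimals, FPKM and TPM for each library; 9 further per-sample columns of the authors' normalised values and 12 columns of group means were not used. The estimated counts were rounded and tested with edgeR 4.0.16 (R 4.3.3, quasi-likelihood, TMM, filterByExpr, all 9 libraries in 1 fit); p-values were adjusted by Benjamini and Hochberg over 14696 genes, and 0.05 was the threshold. SE is the log2 change divided by the square root of F. Ratios of counts were tested by exact permutation of libraries, two-sided.

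The factors and gene lists were chosen with earlier results of these data known. Named are all 9 factors and, per list and comparison, up to 3 called genes with the largest change and a mean of at least 1 CPM, plus Gja1 and Cx3cr1; other genes, such as Ddx3y, Tmem119 and Csf1r, were named after their values were seen. Alternatives were DESeq2 1.42.0, limma 3.58.1, other filters and scales, pseudocounts of 1 and 0.1 on FPKM and 1 on TPM, offsets by 10 bins each of GC content and GENCODE transcript length (17906 genes matched), and leaving out each library.

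Replicate numbers come from the labels, which do not say what they mark. Deviations from the group means correlated at 0.153 to 0.402 in all 9 same-numbered pairs, so the block is given where it changes a call. Libraries of 1 group differed beyond counting noise (mean chi-square per gene 1.78 to 3.49), so none was counted as a copy. The edgeR steps were tested on simulated counts with changes planted at random among tested genes of all levels. They recovered 52% of 100 changes of 1.2-fold and 86% of 100 changes of 1.5-fold. Of all calls there, 5.48% were false. RefSeq matched 18517 gene identifiers. Precision is limited by 3 libraries a group, and the common biological coefficient of variation was 3.14%. Values of some genes that the naming rule covers are not reported here.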

Additional observations from a re-analysis of the deposited data

How the results depend on the processing

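Over 13 alternatives, the 27 log2 changes kept direction and side of the threshold in 261 cases, while 39 became called, 26 lost the call and 25 turned sign; leaving out single libraries gave 234 without a change, 2 newly called, 5 lost and 2 turned. The sign turned in APP/PS1 against WT for Maf (-0.075 with library totals, -0.072 and -0.074 on FPKM with pseudocounts of 1 and 0.1, -0.325 on TPM), Irf8 (-0.134, -0.132, -0.133 and -0.386) and Mef2c (-0.017, -0.021, -0.021 and -0.274), where the median of all genes also fell. GC and length offsets, with or without the replicate block, gave 0.096 for Sall3 in that comparison and -0.011 for Sall1 in cKO against APP/PS1. On TPM, Sall3 and Maf had 0.037 and 0.084 in cKO against APP/PS1, and 8 factors, all higher, were called in place of 5. In cKO against WT, Spi1 had -0.06 with totals, -0.068 on FPKM and -0.158 on TPM, and on TPM Irf8, Mef2c and Cebpa had -0.074, -0.024 and -0.067. Leaving out 1 library moved Irf8 in APP/PS1 against WT between -0.026 and 0.028. The cause of these changes was not tested. The share of calls that were higher in APP/PS1 was 45.7% with TMM, 29.5% with totals, 30.2% on FPKM and 14.7% on TPM. For cKO it was 49.6% against APP/PS1 (75.3% on TPM) and 51.9% against WT (30.4% with totals, 19.8% on TPM). With the replicate block 8, 7 and 7 factors were called in the 3 comparisons, against 6, 5 and 6; it ended no call. The order by level was the same on TPM. Each factor had at least 1214 counts in every library, and the number of libraries, 3 a group, limits the precision.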
